A study of Mus musculus with 8 samples.

Results

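The 6 genes described here make L-serine from a glycolytic intermediate, exchange it with glycine or turn it into D-serine: Phgdh, Psat1, Psph, Shmt1, Shmt2 and Srr, 6 of the 32285 genes in the count matrices. All 6 were named as a metabolic set with earlier results of these data known, and all were found in the matrices, so the tests of the other five are not free of that choice. Psat1 was in addition selected on its strain values in Drd1+ neurons of these same mice, so its levels by strain and their differences between clusters are given as a description with no test, and the comparison of neurons with astrocytes is a description for all 6 genes.

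The data are single-nucleus RNA counts of the striatum, from 32 mice at an age of 12 weeks, taken with the 10x Multiome assay, which reads RNA and open chromatin from 1 nucleus. The mice belonged to 8 inbred strains with no treatment named in the labels: the wild-derived CAST/EiJ, PWK/PhJ and WSB/EiJ, and the classical strains NZO/HlLtJ, NOD/ShiLtJ, C57BL/6, A/J and 129S1/SvImJ, with 4 mice per strain. Nuclei of 8 mice, 1 per strain, were pooled before loading in each of 4 batches, which were balanced for sex by design; the sex of a single mouse is not used here. The labels write C57BL/6J and NZO/H1LtJ where the deposited table of nuclei writes the C57BL/6NJ substrain and NZO/HlLtJ, and the first is called C57BL/6 here for that reason.

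L-serine is made in 3 steps: PHGDH oxidises 3-phosphoglycerate, PSAT1 transfers an amino group to the product, and PSPH removes the phosphate. The serine hydroxymethyltransferases SHMT1, in the cytosol, and SHMT2, in mitochondria, pass a carbon of serine to folate and leave glycine. Serine racemase, encoded by Srr, makes D-serine, a co-agonist of the NMDA type of glutamate receptor. In the brain, synthesis of L-serine is best known from astrocytes, which supply neurons.

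After the authors' filters, 55672 nuclei in 18 annotated clusters remained, between 944 and 4416 per mouse. Batch 3 was the shallowest, with a median of 3232 UMIs (unique molecular identifiers, the counted molecules) per nucleus against 4593 to 4931 in the other batches. Of 54141 distinct barcode sequences of annotated nuclei, 1517 occurred in more than 1 batch. Names of the main glial clusters matched their markers: 8 of 10 astrocyte markers, 6 of 6 oligodendrocyte markers and 6 of 6 macrophage markers were highest in the cluster of that name. Of the Drd1+ and Drd2+ markers, 2 of 5 and 4 of 5 were highest in the cluster named for them, Drd1 (219 CPM) and Drd2 (437 CPM) among them. Pooled CPM and marker levels are counts of a gene per 1000000 counts of all genes in its cluster or library. Scaled CPM are used for single genes per mouse, their strain means and ratios within a mouse. They are taken per 1000000 counts of a scaled total over only the genes tested in that cluster. They can run higher than pooled CPM, most in small clusters, and are not on the same scale.

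The upstream sequences of 3 genes are shown because each holds the letters CCAAT, a box bound by general activators in many promoters, in a window that ends at the annotated start. They come from RefSeq on GRCm38.p6, a build of the C57BL/6J genome, and so do not show the alleles of the other strains. Each is the 250 bases before the start, read in the direction of the gene, and the capitals mark CCAAT or, where the box lies on the other strand, ATTGG. Psat1 is at chr19:15905123-15925059 (minus strand), with its window at chr19:15925060-15925309. Phgdh is at chr3:98313171-98339969 (minus strand), with its window at chr3:98339970-98340219. Shmt1 is at chr11:60788897-60811265 (minus strand), with its window at chr11:60811266-60811515.
Psat1: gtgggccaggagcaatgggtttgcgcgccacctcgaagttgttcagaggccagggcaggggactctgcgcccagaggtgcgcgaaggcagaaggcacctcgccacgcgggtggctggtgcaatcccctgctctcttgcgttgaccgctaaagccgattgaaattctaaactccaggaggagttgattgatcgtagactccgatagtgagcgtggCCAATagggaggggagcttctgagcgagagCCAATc
Phgdh: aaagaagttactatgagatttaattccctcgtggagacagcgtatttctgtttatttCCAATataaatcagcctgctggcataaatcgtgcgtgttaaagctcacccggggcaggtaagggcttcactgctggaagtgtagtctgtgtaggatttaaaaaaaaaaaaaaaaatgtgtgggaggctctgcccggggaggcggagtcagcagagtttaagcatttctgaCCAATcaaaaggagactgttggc
Shmt1: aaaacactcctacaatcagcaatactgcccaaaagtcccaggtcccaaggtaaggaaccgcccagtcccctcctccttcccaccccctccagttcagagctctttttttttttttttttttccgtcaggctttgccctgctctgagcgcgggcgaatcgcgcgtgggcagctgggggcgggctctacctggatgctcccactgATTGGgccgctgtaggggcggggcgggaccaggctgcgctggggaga

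Psat1 and Phgdh each held 2 matches on the forward strand, Shmt1 held 1 on the reverse strand, and Psph held 2 on the reverse strand in a window that overlaps its own annotated gene body. The windows of Shmt2 and Srr held none, and neither did a second RefSeq window of Psat1, chr19:15924623-15924872, which lies inside the gene. Of 32851 windows of the same length in the RefSeq table, 33.8% held at least 1 match on either strand and 10.1% held 2 or more. The letters TGATGNAA, the site of the amino acid response, were in none of these windows and in 3.45% of all windows, searched on both strands. Both motifs were chosen after the sequences had been seen. The authors' list of accessible regions, called over all nuclei without values per strain, has a region of chr19:15924210-15925208 that covers 149 of the 250 bases of the Psat1 window shown and all 250 of the second. Such a region also overlapped the windows of Psph, Shmt1, Shmt2 and Srr but not that of Phgdh, whereas 53.1% of all promoter windows (the same 250 bases and the next 50) overlapped one.

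Across clusters, transcripts of the 3 synthesis enzymes were higher in astrocytes and oligodendrocytes than in Drd1+ and Drd2+ neurons, and Shmt1 was high in oligodendrocytes, while Srr had a like level in these 4 clusters. Pooled over all mice, Phgdh reached 78.6 CPM in astrocytes (95% exact Poisson interval 73.5 to 84.0) and 64.3 CPM in oligodendrocytes, while Drd1+ neurons had 7.01 CPM and Drd2+ neurons 8.24 CPM, the projection neurons of the 2 striatal output pathways. Psat1 reached 106 CPM in oligodendrocytes and 91.5 CPM in astrocytes, against 38.3 and 44.1 CPM in these neurons. Psph reached 53.8 CPM in astrocytes and 41.9 CPM in oligodendrocytes, against 22.4 and 22.6 CPM. All these intervals cover counting error only, and levels are compared between clusters for 1 gene, not between genes.

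Within a mouse, the order of neurons and glia was the same in nearly all animals for Phgdh and Psph, while for Psat1 the gap depended on the strain. The log2 ratio of oligodendrocytes over Drd1+ neurons, with 1 CPM added to both, was 3.00 ± 0.53 (SD, n = 32) for Phgdh, positive in 32 of 32 mice. For Psph it was 0.95 ± 0.37, also positive in 32 of 32 mice. The same ratio for astrocytes was 3.20 ± 1.40 for Phgdh, positive in 31 of 32 mice, and 1.30 ± 0.61 for Psph, positive in 30 of 32. For Psat1 the ratios were 2.08 ± 1.41 in oligodendrocytes, positive in 31 of 32 mice, and 1.93 ± 1.39 in astrocytes, positive in 29 of 32. Strains differed in them, as described below. In WSB/EiJ the ratio for astrocytes was 0.04 ± 0.43 (n = 4), so neither side was higher there.

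**Figure D1:**
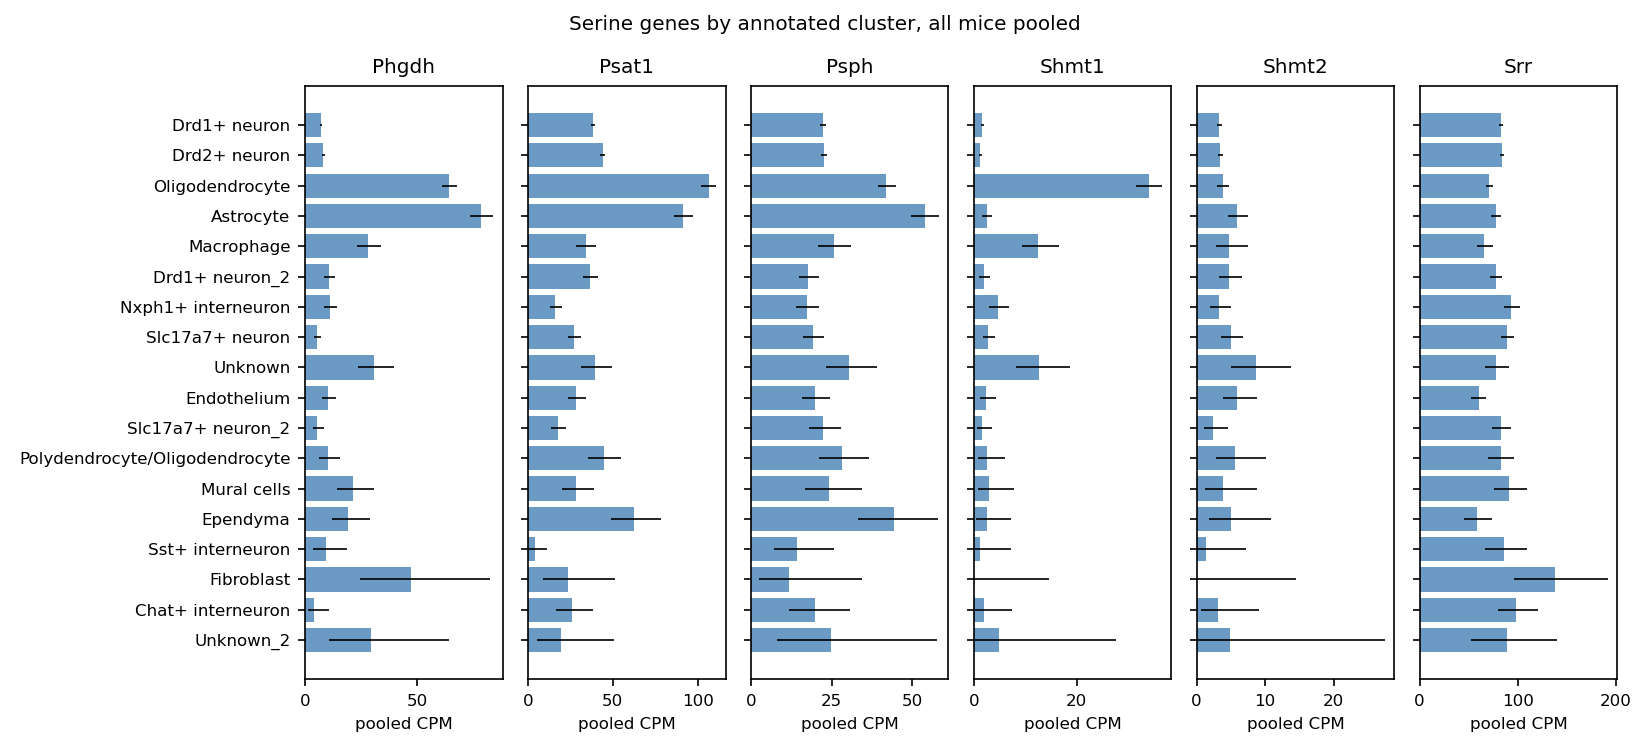
Level of the 6 serine genes in each of the 18 annotated clusters (bars, pooled CPM over all mice, own scale per gene; lines, 95% exact Poisson interval). Phgdh and Psat1 are highest in oligodendrocytes and astrocytes, Psph is highest in astrocytes and ependyma (53.8 and 44.2 CPM), Shmt1 reaches 33.9 CPM in oligodendrocytes, and Srr lies between 70.9 and 84.2 CPM in the 4 largest clusters and highest in fibroblasts (138 CPM from 35 counts).

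Among the smaller clusters, ependyma (346 nuclei) held 62.5 CPM of Psat1 (interval 49.2 to 78.4) and 44.2 CPM of Psph (33.1 to 57.8). Macrophages held 28.3 CPM of Phgdh and 34.1 CPM of Psat1. Fibroblasts held 47.3 CPM of Phgdh, but from 12 counts, with an interval of 24.4 to 82.6. Sst+ interneurons held 3.92 CPM of Psat1 from 3 counts (0.808 to 11.5).

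In Drd1+ neurons, Psat1 was high in WSB/EiJ, A/J and NOD/ShiLtJ and low in the other five strains. Its scaled CPM in batches 1 to 4 were 71.2, 69.6, 81.2 and 77.0 in A/J. They were 69.9, 72.5, 75.0 and 81.7 in NOD/ShiLtJ. They were 85.7, 77.2, 103 and 99.0 in WSB/EiJ. All these mice lay above every mouse of the remaining strains, whose values were between 7.79 and 15.7.

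The low strains lay close to each other, with overlapping mice. Their means were 9.36 ± 0.961 CPM in 129S1/SvImJ, 11.6 ± 1.94 in CAST/EiJ, 11.6 ± 1.21 in NZO/HlLtJ, 12.0 ± 3.36 in C57BL/6 and 14.1 ± 1.30 in PWK/PhJ (SD, n = 4 each). The high strains had means of 74.7 ± 5.34 CPM in A/J, 74.8 ± 5.04 in NOD/ShiLtJ and 91.3 ± 12.0 in WSB/EiJ. Mice of neighbouring strains in this order overlapped, apart from the step from PWK/PhJ to A/J. The mean of WSB/EiJ was 9.76 times that of 129S1/SvImJ. The depth behind the lowest mean is 124 counts of Psat1 over the 4 mice of 129S1/SvImJ, and 1082 counts stand behind that of WSB/EiJ.

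Drd2+ neurons of the same mice gave the same split of strains. Psat1 was 82.3, 79.7, 86.8 and 88.4 CPM in the A/J mice, 83.4, 87.6, 81.4 and 82.9 CPM in the NOD/ShiLtJ mice and 79.4, 75.2, 122 and 98.7 CPM in the WSB/EiJ mice. The mice of the other five strains had 6.81 to 17.6 CPM, so no mouse of these overlapped the high strains. The highest mean, 93.9 ± 21.5 in WSB/EiJ, was 9.12 times the lowest, 10.3 ± 3.79 in NZO/HlLtJ.

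Most smaller neuron clusters also had WSB/EiJ, A/J and NOD/ShiLtJ on top, while Sst+ interneurons held too few counts. The cluster named Unknown, where neuron markers were mixed, did not have these strains on top. In the second Drd1+ cluster (1506 nuclei) their means were 64.5 ± 29.4, 76.1 ± 22.9 and 90.1 ± 11.02 CPM, against 11.9 to 26.4 CPM in the other strains; the lowest WSB/EiJ mouse (38.2 CPM) lay below the highest PWK/PhJ mouse (39.8 CPM). In Nxph1+ interneurons they were 40.7 ± 38.4, 34.2 ± 11.2 and 25.4 ± 16.2 CPM, against means of 6.92 to 14.3 CPM, with overlap between mice. In Slc17a7+ neurons (955 nuclei, too few per mouse for a mean over mice), pooled Psat1 was 40.6 CPM in A/J, 34.4 in NOD/ShiLtJ and 60.0 in WSB/EiJ. There it was 5.67 to 13.2 CPM in 129S1/SvImJ, C57BL/6, CAST/EiJ and PWK/PhJ, and 0 of 438542 counts in NZO/HlLtJ, which allows up to 8.41 CPM (upper bound of the exact 95% Poisson interval). Chat+ interneurons (120 nuclei) had 65.5 CPM in WSB/EiJ, 61.6 in A/J and 38.7 in NOD/ShiLtJ, from 5, 10 and 5 counts, and 0 to 12.7 in the others. The zeros of 129S1/SvImJ and C57BL/6 allow up to 37.6 and 50.5 CPM, which overlaps the NOD/ShiLtJ interval (12.6 to 90.2). Sst+ interneurons, with 3 counts in all, had none in A/J or NOD/ShiLtJ. In the second Slc17a7+ cluster (529 nuclei) pooled Psat1 was 36.5 CPM in WSB/EiJ, 23.2 in NOD/ShiLtJ and 20.1 in A/J, and 6.15 to 13.6 in the others. The others rested on 2 to 5 counts each. The intervals of 129S1/SvImJ (up to 32.1 CPM) and CAST/EiJ (up to 31.7) overlapped those of NOD/ShiLtJ (14.3 to 35.4) and A/J (12.3 to 31.0). The cluster named Unknown (861 nuclei) had the highest Gad1 and Gad2 of all clusters, markers of inhibitory neurons, at 337 and 424 CPM. Its other neuron markers were below their level in Drd1+ neurons: Rbfox3 56.2 against 389 CPM, Snap25 264 against 597 and Syt1 211 against 2454. In the cluster named Unknown WSB/EiJ was lowest in pooled Psat1 (28.9 CPM, 6 counts), NOD/ShiLtJ (59.7) and A/J (54.3) were highest, and CAST/EiJ (44.3) was next. The counting intervals of all strains overlapped there.

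In clusters named for cells other than neurons the order varied, and several of these clusters held much neuronal RNA. All 5 neuron markers had counts in endothelium, mural cells and Polydendrocyte/Oligodendrocyte, with summed pooled levels of 1406, 2462 and 1178 CPM. The sum was 3714 CPM in Drd1+ neurons, 277 in oligodendrocytes and 288 in astrocytes. Syt1, a synaptic vesicle protein, stood at 884, 1612 and 710 CPM in these 3 clusters. By strain the sum ran from 1109.9 to 1635 CPM in endothelium, 1760.2 to 2734 in mural cells and 521 to 1620.4 in Polydendrocyte/Oligodendrocyte. The part of neuronal RNA in their Psat1 values was not tested.

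Endothelium had its 3 highest means in NOD/ShiLtJ (55.6 ± 18.3 CPM, n = 4), WSB/EiJ (51.8 ± 19.6, n = 3) and A/J (39.5 ± 34.5, n = 3), from 18 to 29 counts each and with overlap between mice. Pooled Psat1 in mural cells was 54.5 CPM in NOD/ShiLtJ, 48.9 in A/J and 45.4 in WSB/EiJ, from 6, 16 and 6 counts, and at most 27.3 CPM in the others. The others rested on 1 to 3 counts each, and the interval of NZO/HlLtJ reached 79.9 CPM. In Polydendrocyte/Oligodendrocyte the means over mice were highest in A/J (113 ± 74.4 CPM, n = 4) and CAST/EiJ (79.8 ± 80.4, n = 3), followed by WSB/EiJ (71.6 ± 38.7, n = 3) and NOD/ShiLtJ (67.6 ± 38.0, n = 4). The others had means of 31.5 to 47.6 CPM there, and mice of all strains overlapped. In ependyma, where the neuron markers summed to 1409 CPM, pooled Psat1 was highest in NOD/ShiLtJ (124 CPM) and A/J (89.4), followed by NZO/HlLtJ (62.7). In macrophages, where these markers summed to 319 CPM, the mean over mice was highest in A/J (66.6 CPM) and lowest in CAST/EiJ (23.8), with NOD/ShiLtJ next lowest. Behind these means stand 37 counts in A/J, 7 in CAST/EiJ and 12 in NOD/ShiLtJ.

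**Figure D2:**
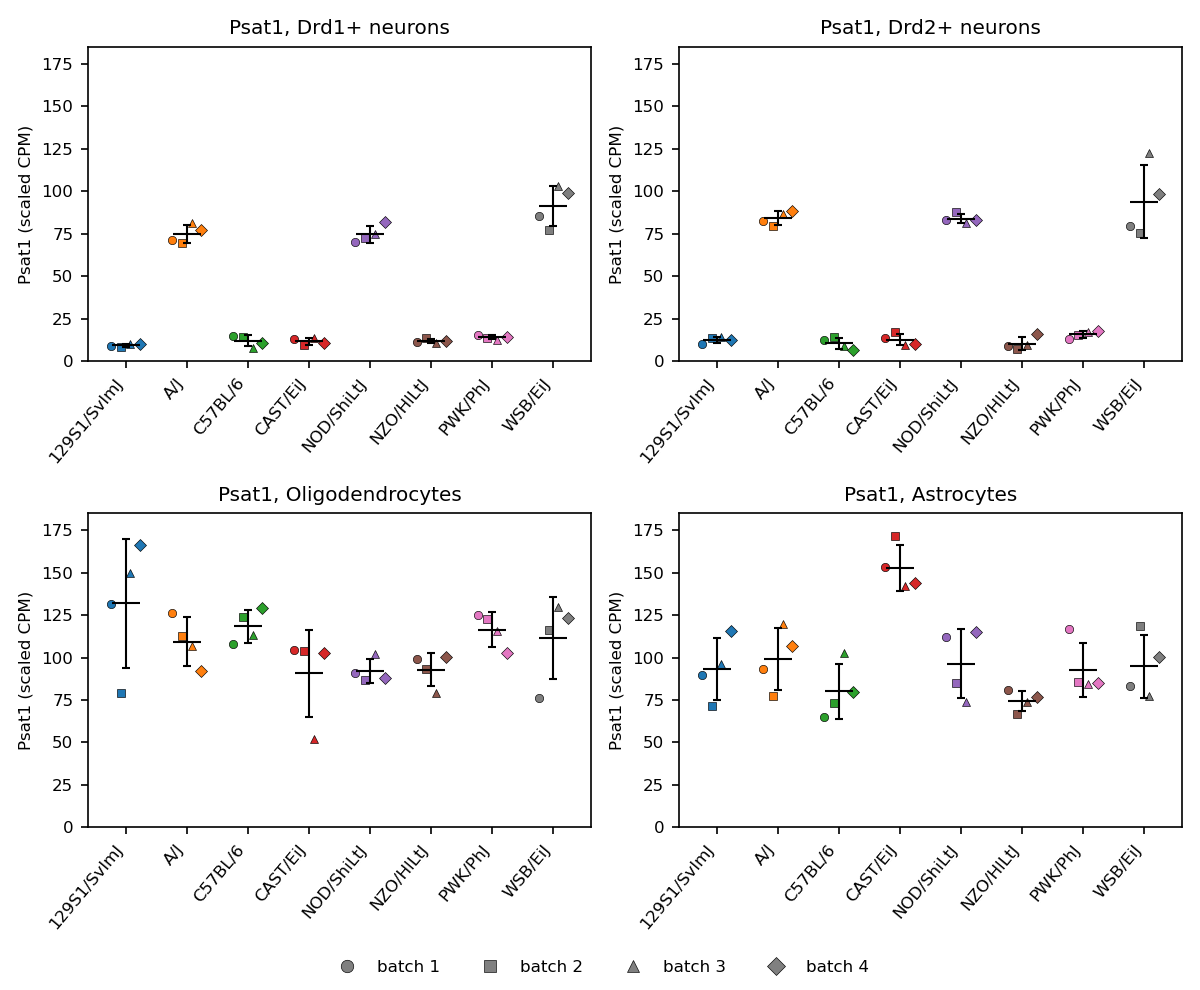
Psat1 per mouse (markers, scaled CPM; shape gives the batch) with the strain mean and SD (black, n = 4) in 4 clusters on a common axis. In both neuron panels the mice of WSB/EiJ, A/J and NOD/ShiLtJ lie apart from all others, from 69.6 CPM upward, and in the glial panels the strains overlap, apart from CAST/EiJ in astrocytes, where its mice lie above all others, the batch 3 mouse on 6 counts only.

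The large glial clusters, oligodendrocytes and astrocytes, did not show this split. In oligodendrocytes the strain means of Psat1 ran from 90.7 ± 25.8 CPM in CAST/EiJ to 132 ± 37.8 in 129S1/SvImJ, a ratio of 1.45, with A/J (109 ± 14.3), NOD/ShiLtJ (91.9 ± 7.03) and WSB/EiJ (111 ± 24.1) among the others. In astrocytes CAST/EiJ was highest, with 153, 172, 142 and 144 CPM in its mice, above every mouse of the other strains (64.9 to 120 CPM). The value of 142 CPM (batch 3) rests on 6 counts in a library of 23 nuclei and does not by itself place that mouse above the others. Without it the CAST/EiJ mean was 156 ± 14.0 CPM (n = 3), and the remaining mice had 144 CPM or more. The astrocyte mean of CAST/EiJ, 153 ± 13.5 CPM, was 2.05 times that of NZO/HlLtJ, 74.6 ± 5.96. A/J (99.2 ± 18.3), NOD/ShiLtJ (96.4 ± 20.2) and WSB/EiJ (94.8 ± 18.7) differed by less than their spread from 129S1/SvImJ (93.2 ± 18.3) and PWK/PhJ (92.8 ± 16.0) there. Their means still ranked above those of all other strains but CAST/EiJ, and lay above that of NZO/HlLtJ by more than their spread.

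The gap between glia and neurons differed from strain to strain. The mean log2 ratio of astrocytes over Drd1+ neurons for Psat1 was 0.04 ± 0.43 in WSB/EiJ, 0.34 ± 0.30 in NOD/ShiLtJ and 0.39 ± 0.18 in A/J (SD, n = 4 each). It was 2.58 ± 0.23 in NZO/HlLtJ, 2.63 ± 0.15 in PWK/PhJ, 2.66 ± 0.67 in C57BL/6, 3.17 ± 0.19 in 129S1/SvImJ and 3.62 ± 0.32 in CAST/EiJ. No test was made of these differences for Psat1, since they come from the mice it was chosen on.

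Free RNA from other nuclei can put glial transcripts into neuron nuclei, so the levels of glial markers in neurons are given beside Psat1. In Drd1+ neurons, the 10 astrocyte markers had 0.783% to 73.5% of their level in astrocytes, with a median of 1.80%. Slc4a4, which stood at 997 CPM in these neurons, gave the highest share, and the other nine had 0.783% to 6.35%. Psat1 in Drd1+ neurons had 7.66% of its astrocyte level in CAST/EiJ, 10.1% in 129S1/SvImJ, 16.0% in PWK/PhJ, 16.3% in NZO/HlLtJ and 17.0% in C57BL/6. In WSB/EiJ, A/J and NOD/ShiLtJ it had 97.0%, 84.4% and 82.0%. By strain, the median share of the 10 astrocyte markers was 1.64% to 2.08%, and that of the 6 oligodendrocyte markers in Drd1+ neurons, relative to oligodendrocytes, was 0.955% to 1.32%. WSB/EiJ (1.98% and 1.07%), A/J (1.91% and 1.22%) and NOD/ShiLtJ (1.75% and 1.29%) lay inside these ranges. Nuclei of all strains were loaded together in each batch, so free RNA was shared between strains and like marker shares come with that design. How much of the Psat1 signal is free RNA was not tested in any strain, high or low.

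**Figure D3:**
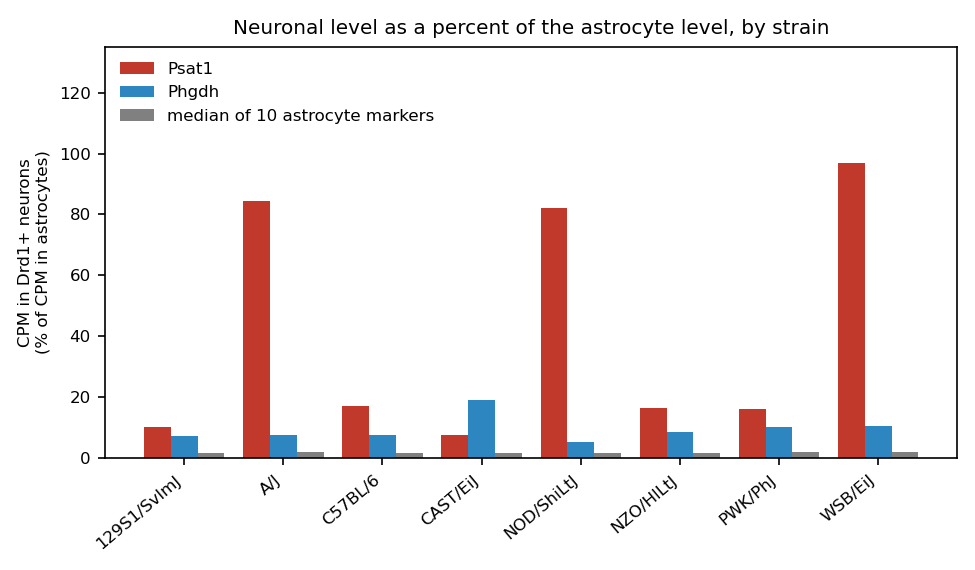
CPM in Drd1+ neurons as a percent of CPM in astrocytes of the same strain (bars, counts pooled over the 4 mice) for Psat1, Phgdh and the median of the 10 astrocyte markers. Psat1 reaches 82.0% or more in WSB/EiJ, A/J and NOD/ShiLtJ and at most 17.0% in the other strains, while Phgdh stays between 5.42% and 19.2% in all 8.

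Phgdh, the first enzyme of the pathway, did not follow the strain order of Psat1. In oligodendrocytes it differed between strains (edgeR quasi-likelihood strain term, adjusted p = 5.59e-05), in a cluster where 4 of the 4 tested members other than Psat1 were called and 34.8% of all 9082 genes tested were. Its values in the 129S1/SvImJ mice, highest on average, were 85.2, 89.2, 66.5 and 92.3 CPM. In the NZO/HlLtJ mice, lowest on average, they were 58.5, 33.2, 44.9 and 49.4 CPM. These mice did not overlap, and the means, 83.3 ± 11.6 and 46.5 ± 10.5 CPM, had a ratio of 1.79. C57BL/6 (80.8 ± 11.1 CPM) and A/J (75.1 ± 10.8) lay near the top, PWK/PhJ (48.2 ± 10.5) and NOD/ShiLtJ (54.9 ± 12.4) near the bottom.

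In Drd1+ neurons Phgdh was low in every strain, from 5.00 ± 1.18 CPM in NOD/ShiLtJ to 10.7 ± 2.26 in CAST/EiJ (adjusted p = 0.0142, edgeR). In that cluster 3 of the 4 tested members were called, against 61.7% of all 13431 genes. The call for Phgdh was lost without batch 2 (adjusted p = 0.172) and without batch 3 (0.0982), and CAST/EiJ had 7.92 to 12.97 CPM, overlapping WSB/EiJ (6.71 to 10.0). The neuronal signal of Phgdh was 5.42% to 19.2% of the astrocyte level by strain, beside a median of 1.80% for the astrocyte markers, and the part of free RNA in it was not tested. In Drd2+ neurons it was not called (adjusted p = 0.119), with 2 of the 4 tested members called there and 55.9% of all 12799 genes.

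In astrocytes, where the pathway is best known, the strain means of Phgdh ran from 44.2 ± 30.6 CPM in CAST/EiJ to 97.8 ± 14.0 in C57BL/6, and the strain term missed the threshold (edgeR adjusted p = 0.139, unadjusted p = 0.0408). None of the 3 tested members other than Psat1 was called there at the adjusted threshold, 1 had an unadjusted p under 0.05, and 21.5% of all 8207 genes were called. CAST/EiJ mice had 51.1, 55.3, 0 and 70.3 CPM. The mouse at 0 (batch 3) had the smallest astrocyte library, 38252 counts. In it 3 counts would be 78.4 CPM without scaling, and the 2 counts of Srr were 47.3 scaled CPM. Its 0 therefore does not show a lower level. Without that mouse the CAST/EiJ mean was 58.9 ± 10.1 CPM (n = 3), still the lowest, next to PWK/PhJ (70.1 ± 22.5, n = 4), and mice of these strains overlapped. A test of the strain by cluster interaction asked whether strain differences were the same in glia as in Drd2+ neurons, with the mouse as block (edgeR's quasi-likelihood F test, Benjamini-Hochberg over all genes). Those of Phgdh differed between astrocytes and Drd2+ neurons (adjusted p = 0.0130, edgeR) and between oligodendrocytes and Drd2+ neurons (0.00627). Of the tested members other than Psat1, 2 of 4 were called in the first of these tests and 2 of 4 in the second, against 11.4% of 13675 and 16.8% of 13215 genes.

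Both interaction calls of Phgdh were lost without batch 2 (adjusted p = 0.294 for astrocytes and 0.154 for oligodendrocytes, edgeR) and without batch 3 (0.0888 and 0.0629). The second was lost without batch 4 as well (0.0619).

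**Figure D4:**
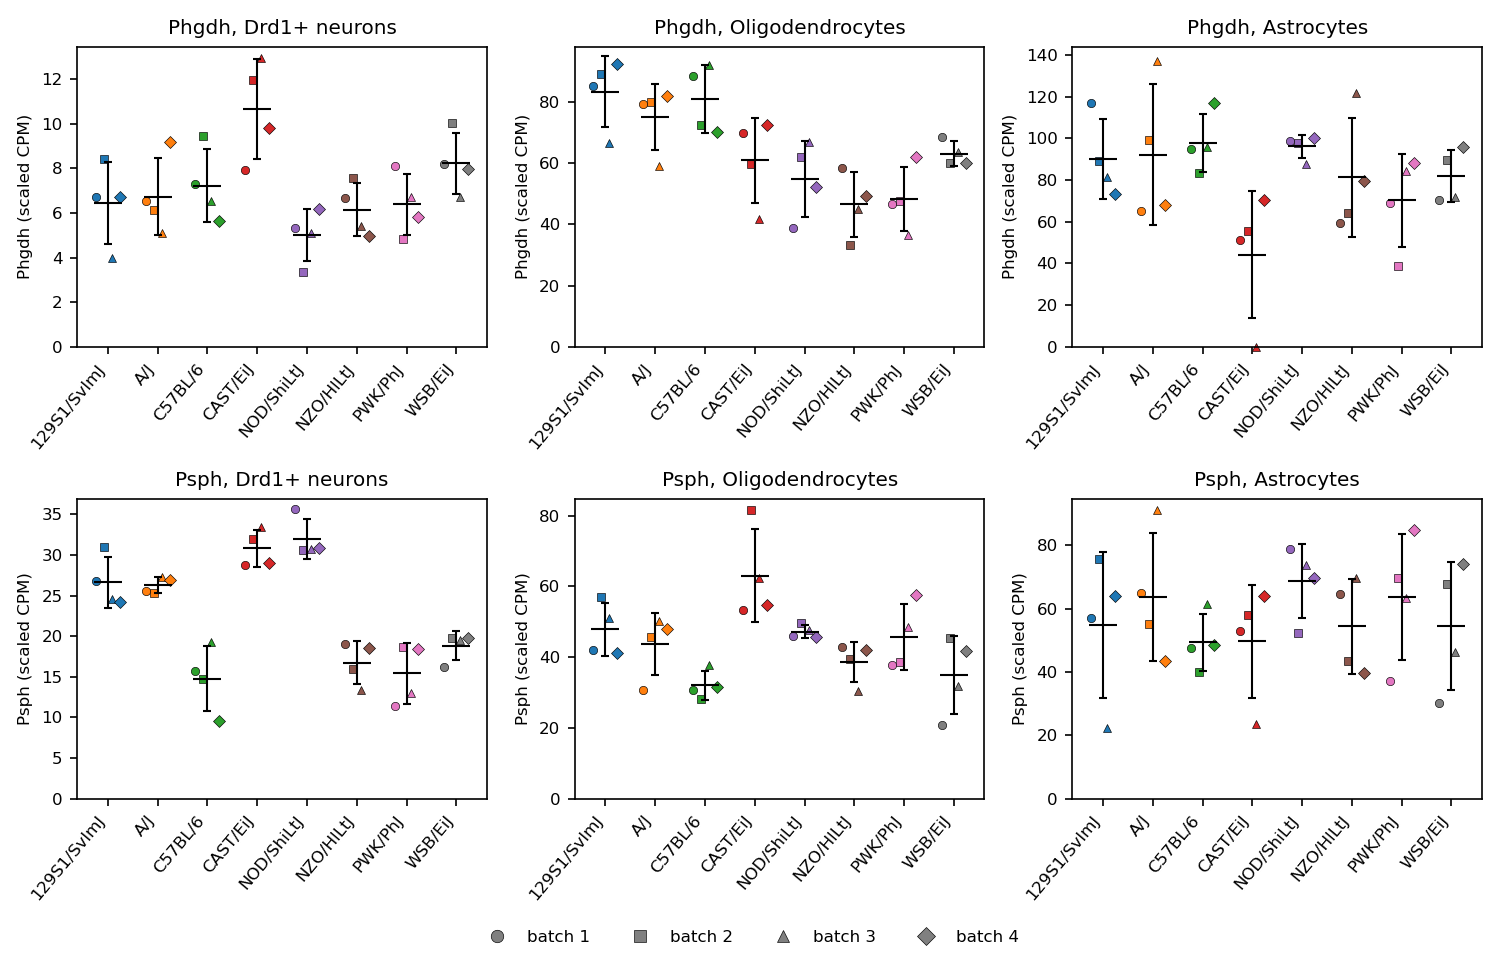
Phgdh (top) and Psph (bottom) per mouse (markers, scaled CPM; shape gives the batch) with strain mean and SD (black, n = 4) in Drd1+ neurons, oligodendrocytes and astrocytes; each panel has its own axis from 0. Psph in Drd1+ neurons falls into strains at 24.2 CPM or more per mouse and strains at 19.8 CPM or less, and its astrocyte values overlap in all strains.

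Psph, the last enzyme of the pathway, varied between strains in neurons in an order of its own. In Drd1+ neurons the NOD/ShiLtJ mice had 35.6, 30.7, 30.7 and 30.9 CPM, the CAST/EiJ mice 28.8, 32.0, 33.5 and 29.0, the 129S1/SvImJ mice 26.8, 31.0, 24.5 and 24.2, and the A/J mice 25.6, 25.3, 27.3 and 26.97. The WSB/EiJ mice had 16.2 to 19.8 CPM, the NZO/HlLtJ mice 13.4 to 19.04, the PWK/PhJ mice 11.5 to 18.7 and the C57BL/6 mice 9.51 to 19.3. Every mouse of the first 4 strains lay above every mouse of the last 4. The strain term was called (adjusted p = 1.02e-09, edgeR quasi-likelihood), and the mean of NOD/ShiLtJ, 32.0 ± 2.44 CPM, was 2.16 times that of C57BL/6, 14.8 ± 4.03.

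Drd2+ neurons gave the same upper and lower strains for Psph, with 23.5 CPM or more in each mouse of 129S1/SvImJ, A/J, CAST/EiJ and NOD/ShiLtJ and 21.8 CPM or less in each of the others (adjusted p = 6.36e-09, edgeR). NOD/ShiLtJ (32.3 ± 2.34 CPM) and PWK/PhJ (13.2 ± 3.85) had the highest and lowest means there, a ratio of 2.45. WSB/EiJ was thus among the high strains for Psat1 and among the low ones for Psph, while CAST/EiJ and 129S1/SvImJ were the reverse, and only A/J and NOD/ShiLtJ were high for both.

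In oligodendrocytes Psph was highest in CAST/EiJ (53.2, 81.7, 62.4 and 54.8 CPM) and lowest in C57BL/6 (30.6, 28.0, 37.8 and 31.6), means of 63.0 ± 13.1 and 32.0 ± 4.14 CPM that did not overlap in any mouse (adjusted p = 0.00557, edgeR). Without batch 2 that call was lost (adjusted p = 0.125). In astrocytes the strain means of Psph ran from 49.4 ± 8.98 CPM in C57BL/6 to 68.7 ± 11.6 in NOD/ShiLtJ and the test found no difference (adjusted p = 0.897, edgeR), at a depth of 57 to 112 counts per strain. The strain differences of Psph differed between oligodendrocytes and Drd2+ neurons (interaction, adjusted p = 0.0116, edgeR) and between astrocytes and Drd2+ neurons (0.0395). The first was lost without batch 1, 2 or 4 (adjusted p from 0.0790 to 0.125) and the second without batch 2, 3 or 4 (0.0514 to 0.455), without the batch as a replicate block (0.0622) and with DESeq2 (0.0775). Psph overlaps the gene Cct6a in the annotation, and whether counting used the strand is not given in the sources used here. Cct6a itself was not called in Drd1+ neurons (adjusted p = 0.672, edgeR; strain means of 15.9 to 19.4 CPM) or in oligodendrocytes (0.774).

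Shmt1, the cytosolic serine hydroxymethyltransferase, was highest in oligodendrocytes when pooled over all mice and varied more between strains than any other tested member there. Pooled, it stood at 33.9 CPM in oligodendrocytes (interval 31.5 to 36.5), 12.5 CPM in macrophages and 12.7 CPM in the cluster named Unknown, against 1.67 CPM in Drd1+ neurons, 1.30 CPM in Drd2+ neurons and 2.50 CPM in astrocytes. In C57BL/6 oligodendrocytes did not stand out, with 5.11 CPM (2.79 to 8.57) beside 9.79 CPM in Unknown (2.02 to 28.6, from 3 counts). Within a mouse the log2 ratio of oligodendrocytes over astrocytes was 3.60 ± 1.53 and that over Drd1+ neurons 3.58 ± 1.27, both positive in 32 of 32 mice. Astrocytes held 28 counts of Shmt1 in all, with none in several mice, so the 1 CPM added to both sides weighs on the size of the ratio. In a mouse with no astrocyte count, any count in oligodendrocytes makes the ratio over astrocytes positive. Its level in Drd1+ neurons was 4.93% of that in oligodendrocytes, inside the range of the 6 oligodendrocyte markers there (0.473% to 12.1%). Relative to oligodendrocytes of the same strain, the share was above that range in C57BL/6 (24.7%) and NOD/ShiLtJ (14.8%). These strains had the lowest pooled levels in oligodendrocytes, 5.11 and 19.9 CPM. Nuclei of all strains were pooled before loading, so free RNA could come from oligodendrocytes of any strain. The shares by strain therefore do not measure it, and the part of free RNA was not tested.

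In oligodendrocytes the PWK/PhJ mice had 59.9, 45.4, 128 and 76.9 CPM of Shmt1 and the CAST/EiJ mice 63.1, 51.8, 46.8 and 63.6. The C57BL/6 mice had 3.40, 9.89, 2.36 and 5.49 CPM, below every mouse of the other strains (11.01 CPM or more). NOD/ShiLtJ was next lowest, with 24.0, 11.01, 29.9 and 17.4 CPM. The strain term was called (adjusted p = 1.01e-13, edgeR quasi-likelihood), and the mean of PWK/PhJ, 77.4 ± 35.8 CPM, was 14.6 times that of C57BL/6, 5.29 ± 3.34, which rests on 14 counts. NZO/HlLtJ (40.6 ± 11.2 CPM), A/J (37.1 ± 6.54), 129S1/SvImJ (35.7 ± 6.94) and WSB/EiJ (31.1 ± 16.1) lay between and overlapped. The summed oligodendrocyte markers were 20771 ± 1572 CPM in the C57BL/6 oligodendrocytes and 23749 ± 2347 CPM in those of PWK/PhJ.

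Other clusters held few counts of Shmt1. Macrophages had 1 count in C57BL/6 and 9 in PWK/PhJ, and Drd2+ neurons 2 and 22. In Drd1+ neurons, with 174 counts in all, C57BL/6 was not lowest: pooled Shmt1 was 1.18 CPM in WSB/EiJ, 1.22 in CAST/EiJ and 1.26 in C57BL/6, with overlapping counting intervals, and 2.95 in NOD/ShiLtJ, the highest. The cluster named Unknown had 3 counts in each of C57BL/6 and PWK/PhJ. The interaction of oligodendrocytes with Drd2+ neurons was not called for Shmt1 (adjusted p = 0.714, edgeR), with 106 counts in all Drd2+ neurons, which does not show that the strain differences were alike.

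**Figure D5:**
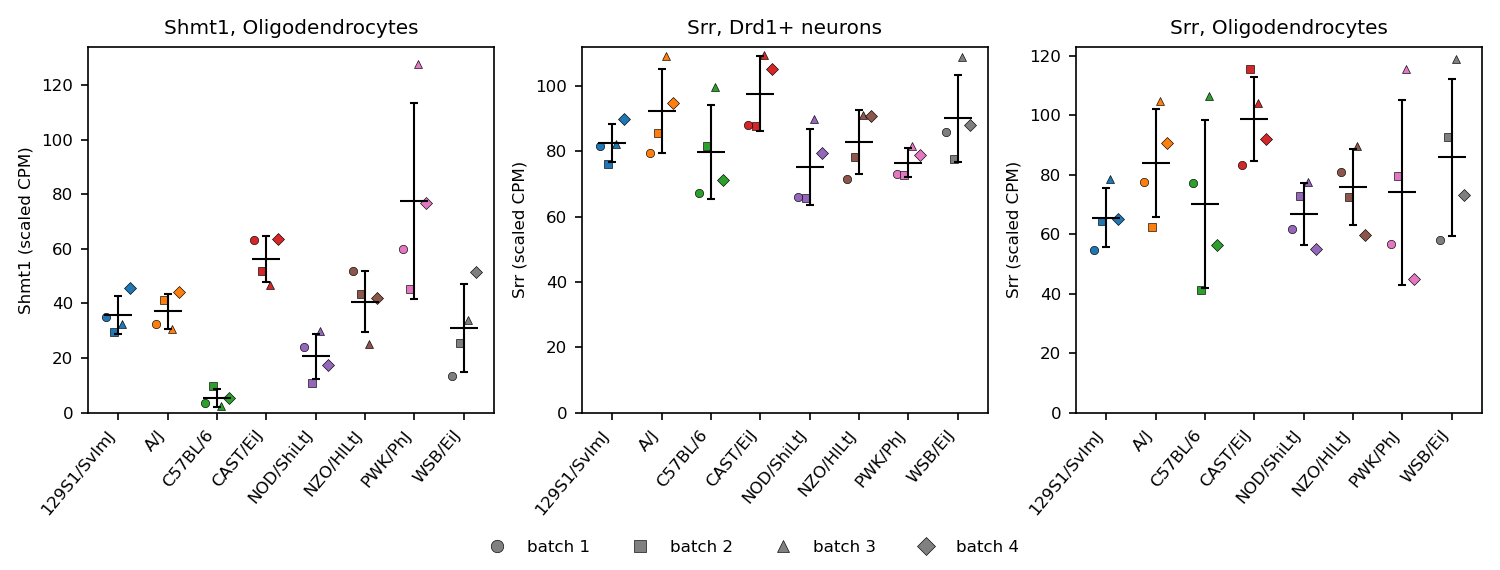
Shmt1 in oligodendrocytes and Srr in Drd1+ neurons and oligodendrocytes per mouse (markers, scaled CPM; shape gives the batch) with strain mean and SD (black, n = 4); each panel starts at 0. All C57BL/6 mice lie below 10 CPM of Shmt1. For Srr, where batch 3 is often highest, the strains overlap only in part. In Drd1+ neurons every CAST/EiJ mouse (87.7 CPM or more) lies above every PWK/PhJ mouse (81.7 CPM or less).

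Shmt2, the mitochondrial form, was near 3 to 6 CPM in all large clusters: 5.88 CPM in astrocytes, 3.81 in oligodendrocytes, 3.48 in Drd2+ neurons and 3.27 in Drd1+ neurons. Its strain means in Drd1+ neurons ran from 2.57 ± 1.54 CPM in C57BL/6 to 4.23 ± 1.44 in CAST/EiJ, from 31 to 58 counts per strain, and no strain difference was detectable at this depth (adjusted p = 0.712, edgeR). The same held in Drd2+ neurons (adjusted p = 0.922). Shmt2 overlaps the gene Ndufa4l2, which was below 1 CPM in every strain mean of both neuron clusters. In glia the strain means of Ndufa4l2 reached 2.86 CPM in oligodendrocytes (PWK/PhJ) and 2.40 CPM in astrocytes (NZO/HlLtJ).

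Srr, which makes D-serine, differed little between the 4 largest clusters, and its strain means there differed by at most 1.71 times. Among the other clusters it ran from 58.4 CPM in ependyma (interval 45.5 to 73.8) and 60.1 in endothelium (52.9 to 68.0) to 138 in fibroblasts (96.0 to 192, from 35 counts). Pooled over mice, it stood at 82.8 CPM in Drd1+ neurons, 84.2 in Drd2+ neurons, 77.5 in astrocytes and 70.9 in oligodendrocytes, and the log2 ratio of astrocytes over Drd1+ neurons was -0.12 ± 0.50, positive in 13 of 32 mice. In Drd1+ neurons the CAST/EiJ mice, highest on average, had 88.2, 87.7, 110 and 105 CPM, and the NOD/ShiLtJ mice, lowest on average, had 65.9, 65.8, 89.8 and 79.6. These mice overlapped. Batch 3 held the highest value in each strain but 129S1/SvImJ, and with the batch in the model the strain term was called (adjusted p = 0.000680, edgeR), with means in a ratio of 1.30 (97.7 ± 11.5 and 75.3 ± 11.7 CPM).

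Without the batch as a replicate block that call was lost (adjusted p = 0.0770, edgeR). Srr was also called in Drd2+ neurons (adjusted p = 0.0276, edgeR; CAST/EiJ 99.3 ± 20.1 and NOD/ShiLtJ 77.5 ± 13.1 CPM), a call lost without the block (0.420), without the expression filter (0.0819) and without batch 1, 2 or 3 (0.142 to 0.189). In oligodendrocytes (adjusted p = 0.0405; CAST/EiJ 98.6 ± 14.2 and 129S1/SvImJ 65.6 ± 9.80 CPM) the call was lost without the block (0.314), without the filter (0.0539), without batch 2, 3 or 4 (0.0708 to 0.271) and with DESeq2 (0.0909). In astrocytes it was not called (adjusted p = 0.309, edgeR). Of the 6 genes, Srr alone was deep enough to be tested, Psat1 apart, in the other 5 clusters, and it was called in none: macrophages (24.8% of all genes called), the second Drd1+ cluster (17.3%), Nxph1+ interneurons (1.53%), endothelium (3.23%) and Polydendrocyte/Oligodendrocyte (1.24%). Its unadjusted p there was 0.125 or more. Srr overlaps Tsr1 and Smg6, and Smg6 was itself called in Drd1+ neurons (adjusted p = 0.000524, edgeR). There it was highest in NOD/ShiLtJ (186 CPM) and lowest in CAST/EiJ (149 CPM), where Srr was lowest and highest. A/J was next highest and PWK/PhJ next lowest for both genes. Smg6 was also called in Drd2+ neurons (adjusted p = 0.0111, edgeR), highest in A/J (171 CPM) and lowest in PWK/PhJ (142 CPM).

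Genes around the pathway were taken from 7 lists of 85 genes: glycolytic input, glycine cleavage, folate and one-carbon, serine use, serine and glycine transport, D-serine breakdown with NMDA receptor subunits, and the amino acid response. The list called glycolytic input also holds enzymes below the branch point to serine, Eno1, Pkm and Pgam1 among them. In Drd1+ neurons 33 of 64 tested genes of these lists differed between strains (51.6% against 61.7% of all genes tested, median log2 span of strain coefficients 0.66 against 0.65). The counts were 29 of 60 in Drd2+ neurons (48.3% against 55.9%), 16 of 44 in oligodendrocytes (36.4% against 34.8%) and 16 of 49 in astrocytes (32.7% against 21.5%, median span 0.77 against 0.74). In neurons these shares lay below that of all genes. These tests have no direction, since 8 strains are compared at once.

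By list, beside 61.7% of all genes, the serine use list had 8 of 10 called in Drd1+ neurons and the amino acid response list 5 of 16, with 4 of 6 for glycolytic input, 2 of 4 for glycine cleavage, 6 of 15 for folate, 5 of 9 for transport and 3 of 4 for D-serine breakdown with NMDA receptor subunits. The 3 called in the last of these lists were Grin3a, Grin2b and Grin2a, all genes of NMDA receptor subunits. Mthfs, which recycles 5-formyltetrahydrofolate, ranged from 34.2 ± 6.45 CPM in C57BL/6 to 113 ± 11.3 in CAST/EiJ (adjusted p = 1.86e-23, edgeR). Mthfd2, another folate enzyme, which acts in mitochondria, ranged from 5.47 ± 1.75 CPM in CAST/EiJ to 18.8 ± 4.36 in A/J (4.52e-07). Sfxn1, a mitochondrial serine transporter, ranged from 53.8 ± 11.4 CPM in WSB/EiJ to 123 ± 20.4 in CAST/EiJ (7.16e-12). Ptdss1, which makes phosphatidylserine, ranged from 18.99 ± 1.58 CPM in NZO/HlLtJ to 38.9 ± 2.61 in C57BL/6 (3.37e-07). Eno1, a glycolytic enzyme below the branch point to serine, ranged from 22.2 ± 3.31 CPM in CAST/EiJ to 46.5 ± 10.1 in C57BL/6 (8.88e-11). The lowest and highest strains thus differed from gene to gene.

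In the amino acid response list, Gpt2, an alanine aminotransferase, was highest in WSB/EiJ in Drd1+ neurons (39.2 ± 10.3 CPM) and lowest in PWK/PhJ (20.5 ± 1.85; adjusted p = 5.81e-05, edgeR). Slc7a11, the cystine and glutamate exchanger, ranged from 2.06 ± 0.651 CPM in NOD/ShiLtJ to 5.88 ± 1.52 in CAST/EiJ (0.000714).

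In astrocytes, 4 of 8 tested transport genes, 3 of 6 of glycolytic input, 3 of 4 of D-serine breakdown and the NMDA receptor, 1 of 4 of glycine cleavage, 1 of 7 of folate and one-carbon, 2 of 10 of serine use and 2 of 10 of the amino acid response were called, beside 21.5% of all genes. Of the 3 called for D-serine breakdown and the NMDA receptor, Grin3a and Grin2b encode receptor subunits. Gldc, the glycine decarboxylase of the cleavage system, ranged from 146 ± 50.05 CPM in CAST/EiJ to 324 ± 32.4 in PWK/PhJ (adjusted p = 9.63e-07, edgeR). Slc7a10, an exchanger that carries D-serine, ranged from 243 ± 94.4 CPM in NZO/HlLtJ to 425 ± 149 in PWK/PhJ (0.000150). Slc38a3, a glutamine and asparagine carrier, ranged from 102 ± 23.8 CPM in NZO/HlLtJ to 212 ± 41.7 in C57BL/6 (3.26e-06). Slc7a11, of the amino acid response list, ranged from 75.8 ± 19.1 CPM in WSB/EiJ to 493 ± 61.8 in NZO/HlLtJ (9.48e-18).

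Among 1860 genes with at least 10 CPM in their highest strain and a log2 span of at least 1 between strain means in Drd1+ neurons, 5 were nearest to Psat1 by the absolute correlation of the 8 strain means of log2 CPM. Bicc1 (r = 0.88) and Cdh20 (r = 0.85) shared its direction. In Drd2+ neurons r was 0.85 for Bicc1 and -0.81 for Ckmt2, -0.78 for Fxyd2, -0.69 for Rbbp8 and 0.62 for Cdh20. Cdh20 did not follow the split of strains, with 4.50 CPM in PWK/PhJ and 4.04 in A/J in Drd1+ neurons. Bicc1 was 65.0 CPM in NOD/ShiLtJ, 47.6 in WSB/EiJ and 43.8 in A/J, against 20.4 to 29.5 CPM in the other strains. Ckmt2 (r = -0.91), Fxyd2 (r = -0.87) and Rbbp8 (r = -0.87) ran opposite: Ckmt2, a mitochondrial creatine kinase, was 1.15 CPM in A/J, 1.67 in WSB/EiJ and 1.86 in NOD/ShiLtJ and 4.17 to 12.2 CPM in the others. The points of these correlations share the same 32 libraries, only 8 strain means stand behind each, and none of the 5 genes is on chromosome 19. The 5 values are the largest of 1860, taken against the pattern that chose Psat1, and the Drd2+ values come from the same mice. Whether unrelated genes would reach such values was not tested.

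The genes next to Psat1 on chromosome 19 did not share its strain order. Cep78, which starts 30.7 kb beyond the Psat1 start, was highest in A/J (69.6 CPM) and PWK/PhJ (62.1 CPM) in Drd1+ neurons and 39.6 CPM in NOD/ShiLtJ and 32.9 CPM in WSB/EiJ, the lowest of the 8 (adjusted p = 4.22e-13, edgeR). Gnaq, 208 kb away, ranged only from 209 CPM in C57BL/6 to 256 in NZO/HlLtJ (0.000461), and Vps13a from 186 CPM in NOD/ShiLtJ to 249 in PWK/PhJ (2.27e-05). C130060C02Rik was highest in PWK/PhJ at 9.60 CPM (0.0458). Gna14 was under 1 CPM in all strains. On the other side, Tle4, 1307 kb away, ranged from 303 CPM in CAST/EiJ to 497 in PWK/PhJ (0.0293), and the olfactory receptor genes Olfr1501, Olfr1502, Olfr1504 and Olfr1505 beyond it were at or near 0.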

How the data were processed

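The deposited matrices hold raw counts of UMIs per gene and barcode, with no normalization by the authors. The submitters' processing notes name bcl2fastq 2.20.0.422, Cell Ranger ARC 2.0.0 and the builds mm10 and GRCm38; the annotation and the strand setting are not given in the sources used here. Per the deposited description, the authors assigned strains with Demuxlet from RNA and ATAC reads, kept nuclei with over 200 and under 7500 genes and under 15% mitochondrial counts, ran DoubletFinder and annotated clusters; these calls (unit other) were used unchanged, and no further doublet caller was run.

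Counts were summed per mouse (batch and strain) and cluster, leaving out libraries under 10 nuclei; 9 clusters had at least 3 mice in every strain. Median library totals ranged from 59127 counts (Polydendrocyte/Oligodendrocyte) to 3011717 (Drd1+ neurons). Genes were filtered by filterByExpr, scaled by TMM and tested in edgeR 4.0.16 (R 4.3.3) with a robust quasi-likelihood F test of strain (7 degrees of freedom, batch as a block), or of strain by cluster with the mouse as a block, at an adjusted p under 0.05. Psat1 was left out of both tests because it was chosen on strain values in these mice; the interaction had been planned with it and was fitted with it before it was left out. Both fits were tested on simulated data. Scaled CPM use the TMM library size over the genes that passed the filter in that cluster. Pooled CPM use the counts of all genes without scaling. Alternatives were DESeq2 1.42.0, RLE scaling, no filter, no block, 30 nuclei, leaving out a batch, unscaled totals, means over nuclei and a UMI minimum per nucleus. The labels pair mice by pool: same-numbered mice were pooled and loaded together, so batch is a block by design.

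Named pathway genes are the up to 3 called genes per list with the largest F in Drd1+ neurons, and up to 2 in astrocytes, of at least 5 CPM in the highest strain, of which a part is printed; neighbours are 5 measured genes on either side. Sequences and positions are from RefSeq (GRCm38.p6), where all 6 genes matched. The members and lists were chosen with earlier results of these data known.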

Additional observations from a re-analysis of the deposited data

Results flagged for a closer look

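In 7 of 136 groups of 4 mice, 1 mouse stood apart from the other mice of its strain by Dixon's test; chance flags about 1 in 20 groups. For Psat1 these were a CAST/EiJ mouse at 52.0 CPM in oligodendrocytes (others 102 to 105) and a PWK/PhJ mouse at 117 CPM in astrocytes (others 84.5 to 85.3). For Phgdh they were an A/J mouse at 58.9 CPM in oligodendrocytes (others 79.5 to 81.8) and a NOD/ShiLtJ mouse at 87.8 CPM in astrocytes (others 97.9 to 99.9). For Psph they were a NOD/ShiLtJ mouse at 35.6 CPM (others 30.7 to 30.9) and a WSB/EiJ mouse at 16.2 CPM (others 19.6 to 19.8), both in Drd1+ neurons. For Srr it was a CAST/EiJ mouse at 129 CPM in Drd2+ neurons (others 88.1 to 91.4).

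The strain differences of 2 genes differed between glia and Drd2+ neurons in the edgeR interaction test. Between astrocytes and Drd2+ neurons the adjusted p was 0.0130 for Phgdh and 0.0395 for Psph. Between oligodendrocytes and Drd2+ neurons it was 0.00627 for Phgdh and 0.0116 for Psph. Each of these calls was lost without at least 1 batch.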

How the results depend on the processing

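Psat1's strain span in 4 clusters, the glia over neuron ratios of all 6 genes and most counts of called members kept their value within the spread under every alternative run. Counts of called members moved by more than 1.5 times as follows. Without the replicate block, 1 member instead of 2 was called in Drd2+ neurons and in the interaction of astrocytes, where DESeq2 also called 1. Leaving out 1 batch at a time gave 1 to 2 called members in Drd2+ neurons, 2 to 4 in oligodendrocytes, and, for the interaction with Drd2+ neurons, 0 to 2 in astrocytes and 0 to 1 in oligodendrocytes, where all 4 batches together gave 2; the losses concern Srr, Phgdh and Psph. Phgdh in Drd2+ neurons passed without batch 1 (adjusted p = 0.0183, edgeR).

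Over all genes, the counts called without 1 batch fell to 1138 of 1767 at the lowest in astrocytes, 628 of 958 in the second Drd1+ cluster, 968 of 1553 for the astrocyte interaction and 1435 of 2220 for the oligodendrocyte interaction. With no expression filter, 468 instead of 61 genes were called in Nxph1+ interneurons, 527 instead of 161 in endothelium and 221 instead of 26 in Polydendrocyte/Oligodendrocyte. DESeq2 called 109 in Nxph1+ interneurons and 75 in Polydendrocyte/Oligodendrocyte, and 71 were called in endothelium without the replicate block. Leaving out 1 batch gave 24 genes at the lowest in Nxph1+ interneurons, 63 in endothelium and 6 to 58 in Polydendrocyte/Oligodendrocyte. The causes were not tested. The minimum of 30 nuclei gave no fit for some small clusters, where too few mice remained. Depth limits Shmt1 outside oligodendrocytes, Shmt2 in every cluster and most members in the small clusters.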
